A study of Mus musculus with 4 samples.

Results

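The MS4A family consists of small proteins with several membrane-spanning segments, and the genes described here are 7 of its mouse members, Ms4a6d, Ms4a6c, Ms4a7, Ms4a4c, Ms4a4b, Ms4a6b and Ms4a1, out of 18194 genes that the array names by a single symbol. Each was read on every probe set whose only annotated symbol is that gene, which gave 15 of 45101 probe sets. Transcripts were measured on 4 arrays of gamma delta intraepithelial lymphocytes, T cells that live within the gut epithelium, sorted from the colon of conventionally raised C57b/6 mice. The 2 DSS samples came from mice that drank 2% dextran sulfate sodium (DSS), which damages the lining of the colon, over 5 days and then recovered over 3 days on normal water, and the 2 untreated samples came from mice with no treatment. Nothing in the labels says whether samples of a group came from separate mice, pools or sorts, so the spread between them may be technical. The 7 genes were chosen with their DSS and untreated signals already known, so their differences between these groups are given as a description with no test. The gene lists set beside them were also chosen with earlier results of these data known. Counts and p-values of listed genes are therefore not those of an unselected set.

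MS4A proteins sit in the plasma or internal membranes of blood cells, alone or beside other receptors, and adjust how those receptors signal. The family is divided among cell lineages: Ms4a1 encodes CD20 of B cells, Ms4a4b and Ms4a6b are found in mouse T cells, and Ms4a6c, Ms4a6d and Ms4a7 in monocytes and macrophages.

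Most of the family lies in 1 cluster, on mouse chromosome 19. In RefSeq's GRCm38.p6 annotation the members follow each other in the order Ms4a1, Ms4a7, Ms4a4c, Ms4a4b, Ms4a6c, Ms4a6b and Ms4a6d, with Ms4a4c beside Ms4a4b and Ms4a6c beside Ms4a6b. These 2 neighbouring pairs had the most alike start regions among the windows compared, and each sets a T cell gene beside Ms4a6c, of the myeloid class, or Ms4a4c. They are shown because they set close relatives named for different lineages, or for none, side by side. RefSeq's table held windows for 5 of the 7 members, each from 250 bases before the transcription start to 50 after it. In GRCm38.p6 the windows are chr19:11469118-11469417 for Ms4a6c, chr19:11518309-11518608 for Ms4a6b, chr19:11407411-11407710 for Ms4a4c and chr19:11443308-11443607 for Ms4a4b, all on the plus strand. Capitals mark the longest run of bases that is identical in the 2 genes of a pair.
Ms4a6c: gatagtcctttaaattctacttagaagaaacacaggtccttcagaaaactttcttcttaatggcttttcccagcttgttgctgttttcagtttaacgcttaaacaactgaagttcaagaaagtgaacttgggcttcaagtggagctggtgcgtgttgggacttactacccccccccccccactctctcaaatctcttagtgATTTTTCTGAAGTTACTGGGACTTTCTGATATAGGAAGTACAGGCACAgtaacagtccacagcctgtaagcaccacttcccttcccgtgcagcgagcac
Ms4a6b: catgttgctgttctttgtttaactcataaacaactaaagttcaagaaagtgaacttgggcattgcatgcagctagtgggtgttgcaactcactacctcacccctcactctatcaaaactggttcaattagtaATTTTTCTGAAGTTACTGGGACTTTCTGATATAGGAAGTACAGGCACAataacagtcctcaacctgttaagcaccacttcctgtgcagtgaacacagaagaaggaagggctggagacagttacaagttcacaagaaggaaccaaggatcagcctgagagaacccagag
Ms4a4c: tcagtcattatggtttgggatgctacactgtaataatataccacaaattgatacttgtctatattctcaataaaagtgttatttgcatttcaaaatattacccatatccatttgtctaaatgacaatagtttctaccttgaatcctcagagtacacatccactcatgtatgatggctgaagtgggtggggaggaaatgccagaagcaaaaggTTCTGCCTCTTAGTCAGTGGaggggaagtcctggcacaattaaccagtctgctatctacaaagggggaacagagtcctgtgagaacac
Ms4a4b: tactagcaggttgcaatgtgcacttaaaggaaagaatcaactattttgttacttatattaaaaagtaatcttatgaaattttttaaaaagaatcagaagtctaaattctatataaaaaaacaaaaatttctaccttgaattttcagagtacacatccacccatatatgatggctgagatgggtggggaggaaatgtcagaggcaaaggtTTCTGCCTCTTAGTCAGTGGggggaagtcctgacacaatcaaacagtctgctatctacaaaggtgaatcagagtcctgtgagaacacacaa
The shared run was 48 bases long in Ms4a6c and Ms4a6b, beginning 49 bases before the start of Ms4a6c and 118 before that of Ms4a6b. It was 20 bases long in Ms4a4c and Ms4a4b, beginning 38 bases before the start of Ms4a4c and 41 before that of Ms4a4b. Over aligned bases the windows were 85.9% identical for Ms4a6c and Ms4a6b (220 bases) and 80.9% for Ms4a4c and Ms4a4b (282 bases). The other 13 pairs among the 6 member windows had 54.6% to 64.3% identity and no shared run over 9 bases.

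Short motifs were looked for on both strands of the 6 member windows, which include 2 starts of Ms4a7. The letters GGAAGT, the core bound by ETS factors such as PU.1 of myeloid cells and ETS1 of T cells, were found in 5 of the 6 windows and in 23.8% of the 32851 windows in the table. They began 15 bases before the first start of Ms4a7, 15 before that of Ms4a4c, 19 before that of Ms4a4b and 16 before that of Ms4a6c, and 85 and 43 bases before that of Ms4a6b. Ms4a6c held a further match 25 bases after its start. The match at 16 in Ms4a6c and that at 85 in Ms4a6b lie within the shared run shown above. The letters GAAANNGAA, part of an interferon response element, were in both windows of Ms4a7 and in those of Ms4a6c and Ms4a6b, against 8.56% of all windows. A form of it longer by a base was in none of the 6 and in 3.44% of all windows. TGTGGT, bound by RUNX factors, was in the Ms4a4c window and in 16.8% of all windows. The letters GAGGAAG, bound by PU.1, had no match in these windows and were in 13.6% of all windows. The same letters without the last base, GAGGAA, stand in the printed windows of Ms4a4c and Ms4a4b. That shorter form was seen only on reading the sequences and was not counted over all windows. TTGCNNAA, bound by C/EBP factors, was in none of the 6 and in 10.8% of all windows. AGATAA, bound by the factors that drive mast cell and red cell genes, was in none of the 6 and in 11.2% of all windows. An NF-kB motif likewise had no match and was in 1.47% of all windows. GGAAGT was added after the sequences had been seen. Windows of the myeloid class and of the T cell class both held it.

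Array-wide facts bear on every value below. The DSS arrays correlated at 0.92 across genes and the untreated arrays at 0.794, with 0.817 to 0.854 between groups. Median signals were 157.1 and 163.3 on the DSS arrays and 193.8 and 213.9 on the untreated arrays. The added hybridisation controls averaged 14370 and 15270 on the DSS arrays against 82270 and 59070 on the untreated arrays, so treatment and array handling cannot be told apart. The median difference of all genes was -0.07 on the log2 scale as deposited, 0.01 with quantile normalization and 0.25 with a common median. Lower numbers of a cell type and less RNA per cell cannot be told apart in such bulk samples either. Lymphocyte identity was checked on 12 of 15 intraepithelial and gamma delta T cell markers that were measured. Ccl5, a chemokine of these cells, Gzma, a granzyme, and Itgae, the integrin CD103, were all at 43520 or more on each array. Ccl5 and Itgae were also lower in DSS samples, by differences of -1.48 ± 0.34 (limma adjusted p = 0.565) and -1.20 ± 0.33 (limma adjusted p = 0.648). They were the 2 genes of that list whose groups lay at least 2-fold apart, as did those of 4.56% of all genes. Trdc, which encodes the delta chain constant region, had no probe set named for it, and of gamma delta receptor genes on the list Trgv4 alone was read, so the arrays themselves do not set gamma delta apart from other T cells.

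The 3 myeloid members were all higher in the DSS samples. Ms4a6d, which in mouse macrophages pairs with the receptor VSIG4, had 4481 and 5861 in DSS samples against 159.9 and 284.1 in untreated samples on probe set 1419599_s_at. Both DSS values stood far above both untreated values, the lower DSS array exceeding the higher untreated array 15.8-fold. The difference was 4.39 ± 0.41 on the log2(signal + 32) scale (SE, n = 2 per group), a scale that understates changes of dim signals. A name ending in _s_at or _x_at means that the probes may also capture transcripts of relatives, which leaves those values uncertain in a family of close relatives. A second probe set, 1419598_at, carries no such ending. It had 1290 and 1765 in DSS samples against 14.83 and 12.61 in untreated samples, a difference of 5.08 ± 0.22. Both untreated values were below the array medians. Under the filter given below this probe set was kept through the DSS arrays alone, so it had to be higher there. The third Ms4a6d probe set, 1449539_at, stayed below the median on all 4 arrays, with 88.43 and 13.82 in DSS samples and 67.72 and 68.22 in untreated samples.

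Ms4a7, a macrophage member, had 1185 and 1485 in DSS samples against 447.1 and 205.9 in untreated samples on 1424754_at. The groups did not overlap, and the difference was 2.01 ± 0.53. Its other probe set, 1445365_at, read 31.56 and 54.63 in DSS samples and 5.703 and 294.6 in untreated samples, so the untreated arrays enclosed the DSS values at low signal. Ms4a6c, a monocyte member, had 1088 and 1087 in DSS samples against 176.2 and 515 in untreated samples on 1450234_at. The DSS arrays were almost identical while the untreated arrays lay well apart, and the difference of 1.73 ± 0.70 was 1.03 without untreated replicate 1 and 2.43 without untreated replicate 2. On its second probe set, 1457725_at, Ms4a6c had 355 and 365.4 in DSS samples against 300.6 and 307.8 in untreated samples, a difference of 0.22 ± 0.03. The groups did not overlap there either, but the size was far smaller, so how far Ms4a6c differed depends on which of its probe sets is read.

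Ms4a4c, a mouse gene next to Ms4a4b that was given no class, was likewise higher in the DSS samples. On 1420671_x_at it had 1322 and 2129 in DSS samples against 241.3 and 358.3 in untreated samples, a difference of 2.39 ± 0.42. On 1450291_s_at it had 1650 and 2779 in DSS samples against 4.986 and 151.9 in untreated samples, a difference of 4.72 ± 1.22. Both probe sets kept the groups apart, and the names of both end in _x_at or _s_at. Under the filter given below 1450291_s_at was kept through the DSS arrays alone, so it had to be higher there.

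The T cell members were far above the array medians in both groups. Ms4a4b, which in mouse T cells associates with the costimulatory receptor GITR, had 3512 and 4681 in DSS samples and 3656 and 1859 in untreated samples on 1423467_at. Untreated replicate 1 lay between the DSS arrays, so the groups overlapped, and the difference was 0.63 ± 0.52. It was 0.15 without untreated replicate 2, 1.11 without untreated replicate 1 and 0.42 without DSS replicate 2. After scaling to a common median the groups no longer overlapped, at a difference of 0.97. The second Ms4a4b probe set, 1425325_at, read between 3.123 and 14.58 over the 4 arrays, far below their medians.

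Ms4a6b, the other T cell member, had 4092 and 7258 in DSS samples against 2341 and 1873 in untreated samples on 1418826_at. The groups did not overlap, with a difference of 1.37 ± 0.44. Its second probe set, 1439956_at, ran the other way at 783.6 and 941.5 in DSS samples against 1325 and 972.6 in untreated samples, a difference of -0.39 ± 0.25. After scaling to a common median that difference was -0.06 and the groups overlapped. The 2 probe sets of Ms4a6b, both above the array median on all 4 arrays, therefore do not give 1 direction.

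Ms4a1, which encodes the B cell surface protein CD20, was dim. On 1423226_at it had 66.48 and 235.4 in DSS samples and 226.3 and 353.4 in untreated samples. The groups overlapped, and DSS replicate 1 lay below its array's median. The difference of -0.96 ± 0.78 was -0.24 without DSS replicate 1 and -1.68 without DSS replicate 2. On 1450912_at it read 46.16 and 64.43 in DSS samples and 18.38 and 8.179 in untreated samples, below the median on all 4 arrays and in the opposite direction, at 0.95 ± 0.22.

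**Figure D1:**
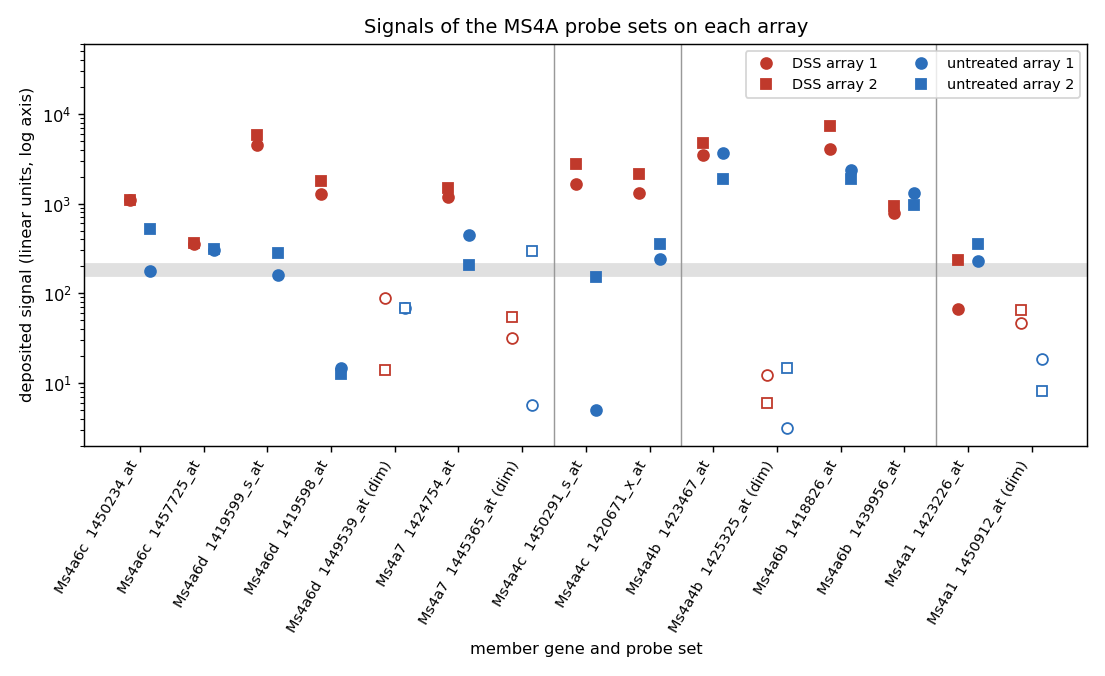
Deposited signal on a log axis for each of the 15 probe sets, with DSS arrays (red) left of untreated arrays (blue) and circles and squares for replicates 1 and 2. Open symbols mark the 4 probe sets that did not exceed the array median on at least 2 arrays, the grey band spans the array medians from 157.1 to 213.9, and vertical lines separate the myeloid members, Ms4a4c, the T cell members and Ms4a1. Red symbols lie above blue ones for the filled Ms4a6c, Ms4a6d, Ms4a7 and Ms4a4c probe sets.

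A probe set was kept for analysis if it exceeded its own array's median on at least 2 arrays, and each gene was represented by its brightest kept probe set. All 7 members had a kept probe set, and 11 of the 15 probe sets were kept. Of these 11, 2 passed through the DSS arrays alone (1419598_at of Ms4a6d and 1450291_s_at of Ms4a4c), so they had to be higher there. On the representing probe sets 5 members were higher in DSS samples without overlap (Ms4a6c, Ms4a6d, Ms4a7, Ms4a4c and Ms4a6b) and 2 overlapped (Ms4a4b and Ms4a1). Over all 12425 genes 17.2% were higher in DSS samples without overlap and 23.8% lower, 41% in all. For 4 members (Ms4a6c, Ms4a6d, Ms4a7 and Ms4a4c) both DSS values were at least 2-fold above both untreated values, which held for 2.18% of all genes, while 2.38% were as far lower and 4.56% apart in either direction. Of the 567 genes so far apart 271 were higher in DSS samples as deposited, 323 of 524 with quantile normalization and 476 of 631 with a common median. As the members were chosen on this same contrast, nothing is read from these counts.

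Set side by side by lineage, the differences of the representing probe sets ran from 1.73 to 4.39 in the 3 myeloid members, with a median of 2.01. They were 0.63 and 1.37 in the T cell members, with a median of 1.00, and -0.96 in Ms4a1, where the median of all genes was -0.07. The lowest myeloid value, that of Ms4a6c, stood close to the highest T cell value, that of Ms4a6b, and the intervals given by their standard errors of 0.70 and 0.44 overlap. Without DSS replicate 1 Ms4a6b was at 1.78 and Ms4a6c at 1.73, and without untreated replicate 1 the highest T cell value was 1.53 and Ms4a6c was at 1.03. The order of myeloid, T cell and B cell values held under both other scalings, both other pseudocounts, averaged probe sets and without either of the other arrays. It also rests on the brightest probe sets. On its second kept probe set Ms4a6c was at 0.22, below both T cell values given above, and Ms4a6b was at -0.39 on its second.

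**Figure D2:**
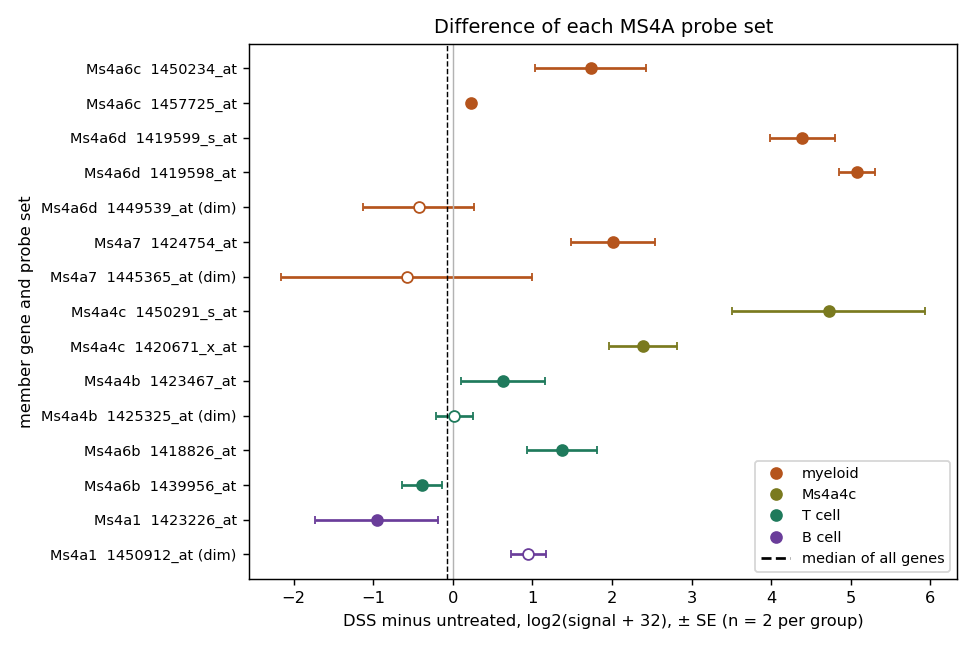
DSS minus untreated for each of the 15 probe sets on the log2(signal + 32) scale, with bars of 1 SE from 2 arrays per group, open symbols for the 4 dim probe sets and a dashed line at the median of all genes (-0.07). The probe sets of 1 gene disagree in size for Ms4a6c (1.73 and 0.22) and in direction for Ms4a6b (1.37 and -0.39).

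The rest of the family was read from genes that are not among the 7. Limma, which shares variance information across genes, was fitted to all 12425 genes with Benjamini-Hochberg adjustment, and it called 0% of them at an adjusted p under 0.05, while 935 genes (7.53%) had an unadjusted p under 0.05. With 2 arrays per group, a gene that did not pass may still differ between the groups. Of 16 further family genes listed, Tmem176a and Tmem176b included as structural relatives, 10 were on the array and 5 were measured. Of those 5, 3 were higher and 2 lower in DSS samples without overlap as deposited, where 17.2% of all genes were higher and 23.8% lower in that way. With either other scaling 1 of the 2 lower genes, Ms4a3, overlapped. Limma passed 0 of the 5, with 3 at an unadjusted p under 0.05. Their median difference was 1.17, against -0.07 over all genes.

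Tmem176a, a structural relative known from dendritic cells, had 1561 and 2471 in DSS samples against 271.9 and 671.5 in untreated samples. The groups were at least 2-fold apart, but the difference of 2.11 ± 0.53 had a limma adjusted p of 0.648. With the replicate number as a block its adjusted p was 0.0425, although these numbers are not taken to pair the samples. It was 0.000112 without untreated replicate 2, 0.00807 without untreated replicate 1 and 1 without either DSS replicate. Its other probe sets gave 2.87 and 0.90, but the first of these was above the median on the DSS arrays alone and so had to be higher there.

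Tmem176b, its partner, had 1955 and 3000 in DSS samples against 815.3 and 1369 in untreated samples, a difference of 1.17 ± 0.45 (limma adjusted p = 0.648). Its limma adjusted p was 0.0112 without untreated replicate 2, 0.121 without untreated replicate 1 and 1 without either DSS replicate. Ms4a8a, found in mouse gut epithelium and in some macrophages, had 640.7 and 746.2 in DSS samples against 263.5 and 305.7 in untreated samples. Replicates were close on both sides, and the difference was 1.20 ± 0.42 (limma adjusted p = 0.648).

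Lower values were read for Ms4a15, a member known from lung epithelium, with 426.2 and 289.4 in DSS samples against 609.7 and 811.4 in untreated samples. Its difference was -0.94 ± 0.44 (limma adjusted p = 0.652). Ms4a3, a member of granulocyte and monocyte progenitors, had 450.2 and 325.7 in DSS samples against 465.5 and 799.5 in untreated samples, a difference of -0.63 ± 0.46 (limma adjusted p = 0.717) that was -0.26 without untreated replicate 2 and -1 without untreated replicate 1. In both genes the DSS values lay below the untreated ones as deposited. The Ms4a3 groups overlapped with quantile normalization, at -0.50, and with a common median, at -0.31, while the Ms4a15 groups did not.

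Ms4a2, the beta chain of the mast cell IgE receptor, stayed below the median on all 4 arrays on both its probe sets, and so did Fcer1a, the alpha chain of that receptor. Ms4a4d, which lies between Ms4a6b and Ms4a6d on the chromosome, had 9.739 and 54.95 in DSS samples and 91.68 and 42.93 in untreated samples. Ms4a10, Ms4a13 and Ms4a18 each exceeded the median on only 1 array, an untreated one, and were not tested. Ms4a19 and Ms4a20, which were not on the list but were found on the array by symbol, read at most 58.88 on any array.

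**Figure D3:**
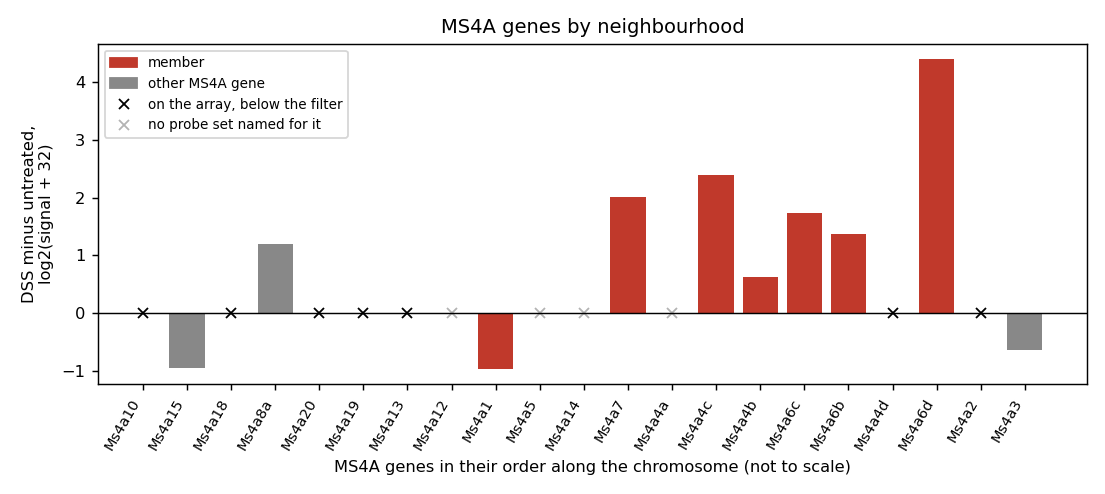
DSS minus untreated on the log2(signal + 32) scale for the 21 MS4A genes of chromosome 19 in the order they follow each other, with the 7 members in red, other measured MS4A genes in grey, black crosses for genes below the filter and grey crosses for genes with no probe set named for them. Measured genes from Ms4a7 to Ms4a6d are all members chosen on this contrast, with values of 0.63 to 4.39; outside that stretch Ms4a8a had 1.20 and Ms4a1, Ms4a15 and Ms4a3 had values below 0.

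Receptors that work beside MS4A proteins were read from a list of 7. Clec7a (dectin-1), a macrophage receptor for fungal glucans that associates with MS4A4A, had 1213 and 2265 in DSS samples against 494.4 and 292.6 in untreated samples. Its difference was 2.03 ± 0.49 (limma adjusted p = 0.62), with no overlap. Tnfrsf18 (GITR) had 2604 and 3508 in DSS samples and 2170 and 4117 in untreated samples, so the untreated arrays enclosed the DSS arrays. Its difference was 0.02 ± 0.45 (limma adjusted p = 0.996), with -0.13 under quantile normalization and 0.36 under a common median.

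Fcer1g, the signalling chain of Fc receptors that intraepithelial lymphocytes also express, had 3907 and 4588 in DSS samples and 2724 and 7230 in untreated samples, with a limma adjusted p of 0.974. Cd81, a tetraspanin of many blood cells, had 634.9 and 703.2 in DSS samples against 173.8 and 200.9 in untreated samples, a difference of 1.68 ± 0.44 (limma adjusted p = 0.648). Cd40, a costimulatory receptor of B cells and macrophages that associates with CD20 in human B cells, had 518.3 and 612.8 in DSS samples against 385.1 and 290.1 in untreated samples on its brightest probe set, at 0.70 ± 0.43 (limma adjusted p = 0.688). On 1439221_s_at it had 388.9 and 549 in DSS samples against 17.47 and 18.29 in untreated samples, a difference of 3.31, and this probe set was above the median on the DSS arrays alone. Both of these Cd40 probe sets have names ending in _s_at. The third, 1460415_a_at, had 274.8 and 82.53 in DSS samples and 36.54 and 121 in untreated samples, which overlap. The list as a whole had 5 measured genes with a median of 0.70, and 3 of them were higher without overlap, against 17.2% of all genes. Of these 3, Cd81 was above the median on the DSS arrays alone. The medians of the DSS arrays were lower, so the filter favoured a higher value there without forcing it.

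Markers of other cell types were read beside the members. Of 20 macrophage and monocyte markers 17 were on the array and 13 measured, and all 13 were higher in DSS samples without overlap, with a median difference of 2.38 against -0.07 over all genes. Of all genes 17.2% were higher in that way, and the median of the list without the filter was 2.04. Limma passed 0 of them after adjustment, with 10 at an unadjusted p under 0.05, against 0% and 7.53% of all genes. Csf1r, the M-CSF receptor gene, had 33270 and 40990 in DSS samples against 4342 and 1162 in untreated samples, a difference of 4.02 ± 0.62 (limma adjusted p = 0.247). C1qb, a complement chain made by macrophages, had 12780 and 17360 in DSS samples against 1858 and 325.2 in untreated samples, a difference of 4.18 ± 0.75 (limma adjusted p = 0.428). The summed signal of the 13 markers was 64400 and 90200 in DSS samples against 10100 and 3730 in untreated samples. None of the 13 was listed at 0. C1qc and Mrc1 were below the median on both untreated arrays and passed the filter through the DSS arrays alone. C1qc, at 51.76 and 10.85 in untreated samples, therefore had to be higher in DSS samples. Mrc1 had 190.4 and 172.6 in untreated samples, above the medians of the DSS arrays. For Mrc1 the filter favoured a higher value in DSS samples without forcing it. Cx3cr1, Itgam, Cd163 and Mertk were below the filter, and the groups overlapped on each of their probe sets. Itgam had 176.2 and 67.69 in DSS samples and 168.5 and 121.7 in untreated samples. Mertk had 123.3 and 235.1 in DSS samples and 183.2 and 26.52 in untreated samples. Of 13 measured T cell markers 2 were higher, 1 lower and 10 overlapping, where 17.2% of all genes were higher and 23.8% lower without overlap. Their median was -0.10 as deposited and 0.25 after common-median scaling. Their summed signal was 62800 and 58400 in DSS samples and 54700 and 83900 in untreated samples, so it did not separate the groups. The part of these markers in the members' differences was not tested.

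B cell markers, set beside Ms4a1, gave 8 measured of 14 on the array. Of these 8, 0 were higher, 1 lower and 7 overlapping, where 17.2% of all genes were higher and 23.8% lower without overlap. Their median was 0.05, and it was -0.14 when probe sets of a gene were averaged and 0.37 after common-median scaling. Summed signals were 14200 and 26000 in DSS samples and 12400 and 21800 in untreated samples, most of it from Ighm, the immunoglobulin mu chain. Cd79b, a chain of the B cell receptor complex, had 976.8 and 1579 in DSS samples and 735.6 and 1742 in untreated samples. The B cell genes Cd79a, Ebf1, Cr2, Vpreb3, Pou2af1 and Fcrla were below the filter, as was the second Ms4a1 probe set. Ms4a1 was also lower on replicate 1 than on replicate 2 in both groups, at -1.44 between the DSS arrays and -0.58 between the untreated arrays, and the B cell list had medians of -0.68 and -0.59 for the same steps.

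The remaining lists held smaller or mixed shifts. Mast cell markers had a median of 0.46 over 7 genes, neutrophil markers 0.19 over 5, dendritic cell markers -0.13 over 5, plasma cell markers 0.19 over 5 and colonic epithelial markers 0.50 over 9. Leaving out 1 array turned the sign of the mast cell, neutrophil and dendritic cell medians and took the epithelial one to between -0.09 and 0.81. Intraepithelial and gamma delta T cell markers had a median of -0.49 over 12 genes, 7 of them lower and 1 higher without overlap, against 23.8% and 17.2% of all genes. The median was -0.19 with quantile normalization, -0.14 with a common median and -0.79 without untreated replicate 1.

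**Figure D4:**
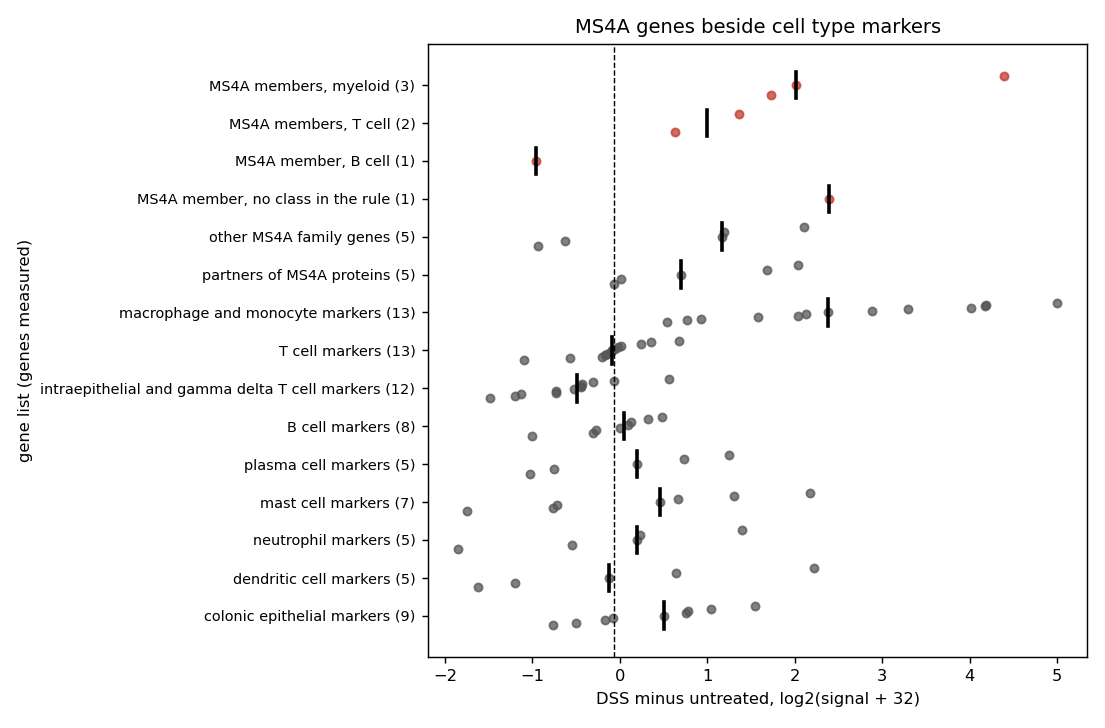
DSS minus untreated on the log2(signal + 32) scale for each measured gene of each list, with MS4A members in red, other genes in grey, black bars at list medians and a dashed line at the median of all genes (-0.07). The myeloid MS4A members (median 2.01) and the macrophage and monocyte markers (median 2.38) lie to the right, and the T cell markers (median -0.10) lie around 0.

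Differences between the 2 arrays of a group were not used to choose the members. The untreated arrays differed in macrophage and monocyte markers: 10 of 13 were higher on untreated replicate 1 than on replicate 2, with a median step of 0.97 against -0.07 over all genes. Among the brightest of these markers Csf1r differed by 1.87, C1qb by 2.40, Lyz2, a lysozyme, by 1.94 and Cd14, the lipopolysaccharide coreceptor, by 0.55. Of the myeloid members Ms4a7 went the same way, by 1.01. Ms4a6d and Ms4a6c went the other way, at -0.72 and -1.39, and so did Ms4a4c at -0.51. The markers Ccr2, a chemokine receptor gene, Cd68 and Fcgr1 also went the other way, at -2.38, -0.39 and -0.11, and were named after their values were seen. Ccr2 read 31.06 on untreated replicate 1, far below that array's median, and 297 on replicate 2. The T cell members Ms4a4b and Ms4a6b were higher on untreated replicate 1 by 0.96 and 0.32, while 3 of 13 T cell markers were higher there and their median step was -0.51. With 1 pair of arrays these steps have no replicate check and no test.

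The DSS arrays were closer to each other. Of the macrophage and monocyte markers 4 of 13 were higher on DSS replicate 1, with a median step of -0.40. Ms4a6d differed by -0.38, Ms4a7 by -0.32 and Ms4a6c by 0.00, the last the smallest step of any member. Ms4a6b had a step of -0.82 and Ms4a4b one of -0.41, while the T cell markers had a median step of 0.02.

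**Figure D5:**
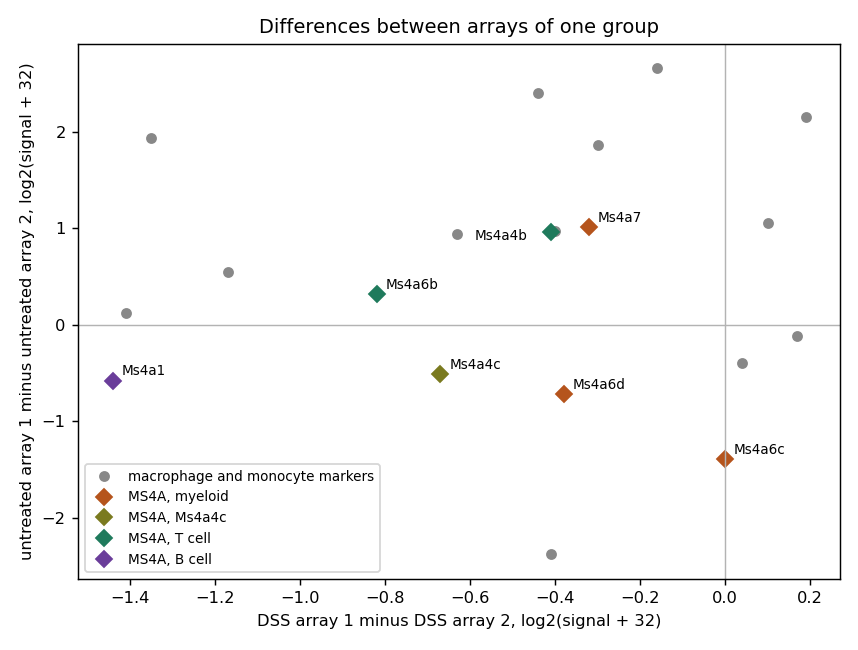
Difference between the 2 DSS arrays (horizontal) and between the 2 untreated arrays (vertical), both replicate 1 minus replicate 2 on the log2(signal + 32) scale, for the 7 MS4A members (diamonds) and 13 macrophage and monocyte markers (grey circles). Ms4a7 lies above 0 on the vertical axis with 10 of the 13 markers, and Ms4a6d and Ms4a6c lie below it.

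Genes with array profiles most like 2 of the members were found by the distance between log2 values on the 4 arrays, each centred on its own mean. Nearest to Ms4a6d were Ly86 (MD-1), partner of a Toll-like receptor homologue, at a distance of 0.25, Ifitm1, an interferon-inducible membrane protein, at 0.59, the cytokine gene Il1b at 0.64 and Ifitm3 at 0.70. Ly86 had 3545 and 5533 in DSS samples against 111.8 and 220.3 in untreated samples, and Ifitm3 had 2331 and 4921 in DSS samples against 69.88 and 244.8 in untreated samples. All 4 of them were therefore high on both DSS arrays and low on both untreated arrays. Nearest to Ms4a4b were Mrps35, a mitochondrial ribosomal protein gene, at 0.05, Pcgf5, a Polycomb group gene, and Ten1, a telomere protein gene, both at 0.07, and the kinase gene Hunk at 0.09. Mrps35 had 624.3 and 825.4 in DSS samples and 649.1 and 329.4 in untreated samples, with the same single low array, untreated replicate 2, as Ms4a4b. Distances over 4 arrays are a description, and many genes share a profile over so few points.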

How the data were processed

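Deposited values were linear signal intensities, 1 per probe set and array, made by the authors with GCOS per the submitters' processing notes; no source used here gives its version. Each array averaged 500 after the lowest and highest 2% were dropped. A platform table named genes. Names were checked by gene number against RefSeq (GRCm38.p6), which updated 0 symbols.

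The scale was log2(signal + 32), unnormalized beyond the deposited scaling. Probe sets above their array's median on 2 or more arrays were kept, the brightest standing for its gene (12425 genes). Limma 3.58.1 in R 4.3.3 (lmFit, eBayes with an intensity trend) compared DSS with untreated samples, with Benjamini-Hochberg adjustment at 0.05, and was tested on simulated data. Limma standard errors are given for genes that are not among the 7, and plain ones from the 4 arrays for the 7. Same-numbered samples deviated together at r = 0.0521 across genes, with 2 pairs and no label that pairs them, so no block was used. Windows were aligned with Biopython 1.88.

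Members and lists were chosen with earlier results of these data known. Members, family genes and partners on the array were all to be named, at most 4 markers per list (the brightest) and 4 nearest profiles. Markers below the filter, Trdc, Trgv4, C1qc, Mrc1, Ccr2, Cd68 and Fcgr1 were named in addition. Alternatives varied the pseudocount, scaling, probe set choice, filter and variance trend, added a replicate block, or left out each array.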

Additional observations from a re-analysis of the deposited data

How the results depend on the processing

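The 2 arrays per group and the low signal of 4 member probe sets limit the precision. Under the 11 settings run for the members their differences kept their sign on the representing probe sets, with 4.03 to 4.75 for Ms4a6d, 1.5 to 2.51 for Ms4a7 and 0.15 to 1.11 for Ms4a4b. Averaging kept probe sets gave 0.98 for Ms4a6c, 0.49 for Ms4a6b and 3.55 for Ms4a4c, whose probe sets disagree in size. The myeloid median ran from 1.85 to 2.51 with 1 array left out. Reading each kept probe set as a feature gives no single value per gene; those values stand in the report.

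Limma called 0 genes as deposited, 3 with averaged probe sets and 67 with the replicate block; with 1 array left out it called 0 to 1785, the highest without untreated replicate 1, and 752 without untreated replicate 2, where the lone array is assumed to vary like the other group. The block and the dropping of the filter left the members' differences as they were, so these settings are no check on their sign. Genes at least 2-fold apart numbered 567, 969 as probe sets, and 1227 to 2402 with 1 array left out, where a lone array makes separation easier. Marker medians turned sign as follows. T cell markers gave 0.25 after common-median scaling and -0.26 to 0.11 with 1 array left out. B cell markers gave -0.27 without the filter, -0.14 with averaged probe sets and -0.32 to 0.27 with 1 array left out. Dendritic cell markers gave 0.21 after common-median scaling and -0.46 to 0.21 with 1 array left out. With 1 array left out, mast cell markers gave -0.57 to 1.34, neutrophil markers -0.22 to 0.40 and epithelial markers -0.09 to 0.81. The cause was not tested.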
